A study of Columba livia with 12 samples.

Results

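The 4 microRNAs described here, miR-1388, miR-2188, miR-456 and miR-1662, are known from birds and, for the first 3, also from fish, and have no counterpart under these numbers among human miRNAs. They were followed in the liver of the pigeon (Columba livia) at 4 ages. Their rows were found by name: every entry of the count table with a pigeon name and one of the 4 numbers, whatever its letter or arm. This gave 8 rows of the 1039 in the table, cli-miR-1388-3p and cli-miR-1388-5p, cli-miR-2188-3p and cli-miR-2188-5p, cli-miR-456-3p and cli-miR-456-5p, and cli-miR-1662-3p and cli-miR-1662-5p, written below without the prefix. All birds were white king pigeons, a breed of the domestic pigeon, and the samples were liver taken from one anatomical position, with no treatment named. Ages were 1 day, 14 days and 28 days after hatching, written 1d, 14d and 28d, and an adult age of 2 years, written 2y. The younger birds of the study were squabs of mixed sex and the 2y birds were parents of both sexes. Each age had 3 libraries of small RNA, each made from 1 pigeon, and the sex of each sequenced bird is not given. The descriptions of 2 of the 1d libraries name birds of 2 and 3 days, and these libraries were grouped by their title and stage label. In whole tissue, fewer cells of a type and less RNA per cell cannot be told apart.

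A microRNA is cut from the 2 arms of a short RNA hairpin, first in the nucleus and then by the enzyme Dicer. The pieces are named 5p and 3p after their arm. One piece is usually loaded into an Argonaute protein, where a short stretch near its 5′ end, the seed, pairs with target mRNAs and lowers their translation or stability, and the other piece is mostly degraded. The 2 arms of 1 hairpin carry different seeds, so which arm is kept decides which mRNAs can be reached. No target of these 4 microRNAs in pigeon liver is given in the sources used here, and their mature sequences are not analysed here.

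Whole-library facts bear on every value below. Library totals lay between 3100273 and 9393075 counts, and 344 rows had enough counts to be tested. Levels are given as CPM, the count scaled to a library of 1000000 counts, on library sizes adjusted by TMM, which assumes that most miRNAs do not differ between libraries. The TMM factors differed by age: 1d libraries had 1.60 to 1.95, 14d libraries 1.30 to 1.60, 28d libraries 0.510 to 0.952 and 2y libraries 0.567 to 0.729. With the library total alone, the median over the 344 rows of the log2 fold change shifted by -0.30 for 14d against 1d, by -1.03 for 28d against 14d, by 0.02 for 2y against 28d and by -1.31 for 2y against 1d. Levels and statements on overlap below are on the TMM scale unless the library total is named. The library 28d replicate 1 stood apart from the other two of its age, with a factor of 0.952 against 0.515 and 0.510, and 421 names with a count against 323 and 303. Of all counts in a library, the 8 rows together held 0.566 to 0.867% in 1d libraries, 0.261 to 0.517% in 14d libraries, 0.148 to 0.226% in 28d libraries and 0.288 to 0.362% in 2y libraries.

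The members were proposed with results of these libraries in view. Their levels, fold changes and standard errors (SE) are therefore descriptions. Where a member row is named as past the threshold or not, in any setting, that too describes the fit and is no test of the member. With the arms of miR-456 summed, all 7 member rows passed the filter on low counts. In the edgeR quasi-likelihood fit over all rows, the number of the 7 rows with a Benjamini-Hochberg adjusted p under 0.05 was as follows. For 14d against 1d it was 2 higher and 2 lower, beside 15.7% of all tested rows called higher and 14.0% called lower. Between 28d and 14d it was 3 higher and 1 lower, beside 15.7% and 12.5%. For 2y against 28d it was 0, beside 0 of all 344 rows. In that comparison 39 rows had an unadjusted p under 0.05, and DESeq2 called 17 of the 344 rows, 1 of them among the 7. For 2y against 1d it was 2 higher and 2 lower, beside 14.2% and 13.4%. By library total the 7 rows gave 2 higher and 3 lower for 14d against 1d, beside 30 and 49 of all rows. They gave 0 and 3 for 28d against 14d beside 18 and 99, and 2 and 4 for 2y against 1d beside 12 and 111. With only the 6 libraries of 28d and 14d fitted, 1 of the 7 was called, beside 77 of 286 rows. On the TMM scale, libraries did not overlap between ages in 58.4% of all tested rows for 14d and 1d, 47.1% for 28d and 14d, 15.4% for 2y and 28d, 51.2% for 2y and 1d, 42.7% for 28d and 1d, and 56.1% for 2y and 14d. This is the background for statements on overlap on that scale below. Statements on overlap by library total have no such share beside them. On that scale the median log2 fold change over all rows was 0.167 for 14d against 1d and -1.3 for 28d against 14d. It was -0.159 for 2y against 28d and -1.26 for 2y against 1d. These medians do not stand in for the missing share. Statements on overlap by library total are descriptions, and none is read as setting a member apart from other rows. Nothing is read from these counts, since the choice of members used the same comparisons, and the comparisons share libraries with one another.

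**Figure D1:**
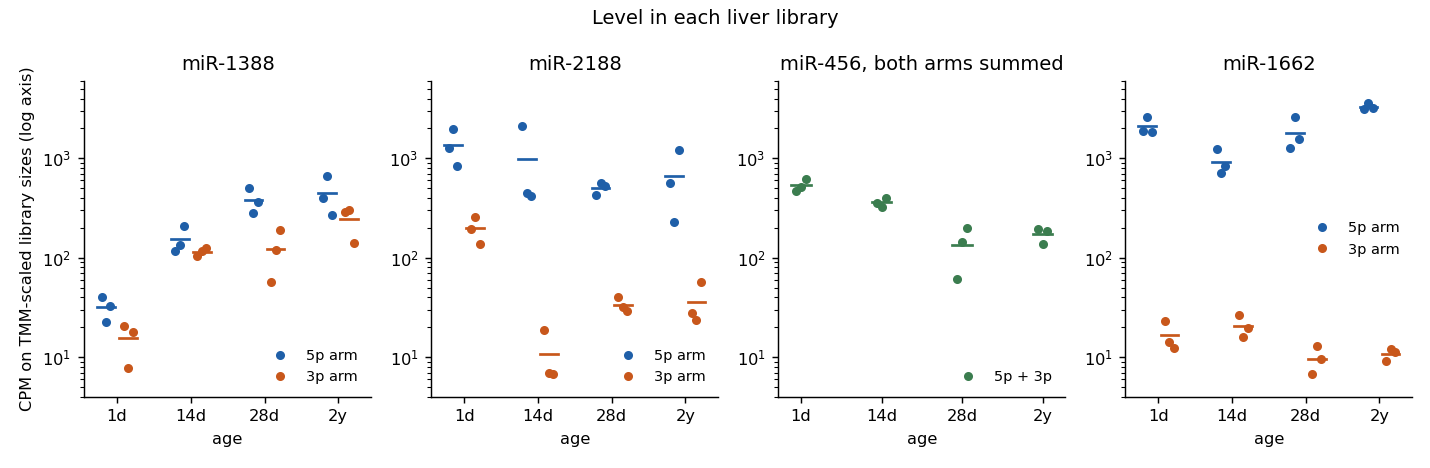
Level of each microRNA in each liver library, with age on the x axis and CPM on TMM-scaled library sizes on a logarithmic y axis. Points are single libraries, for the pigeon-named rows only, and short lines the mean of 3. miR-1388-3p lies between 7.84 and 20.5 CPM at 1d and above 57 CPM in every later library, and miR-2188-3p is lowest at 14d, at 6.85 to 18.7 CPM.

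By its pigeon-named rows, miR-1388 was scarcest in the hatchling liver. On both arms and both scales every later library was then above every 1d library. A conserved-name 3p row with 950 counts in 1d replicate 1, described below, is not in these values, and the statement does not cover it. miR-1388-3p was at 20.5, 7.84 and 17.96 CPM in the 1d libraries, at 104, 117 and 126.2 CPM at 14d, at 57.7, 119.7 and 189 CPM at 28d, and at 290, 305 and 141.3 CPM at 2y. On the TMM scale the 2y libraries were all above the 14d ones, and the 28d libraries overlapped both. By library total the 2y and 14d libraries overlapped, and all 28d libraries lay below all 14d ones. The 14d mean was 116 ± 11.4 CPM against 15.4 ± 6.70 CPM at 1d (SD, n = 3 each), a fitted 7.49-fold difference (log2 fold change 2.90 ± 0.52 SE). The 2y mean was 245 ± 90.3 CPM, 15.9-fold above 1d (3.99 ± 0.54 SE). Between 28d and 14d the 3p arm showed no direction that held on both scales, with a log2 fold change of 0.08 ± 0.48 SE on the TMM scale and -1.19 ± 0.48 SE with the library total alone. By library total the log2 fold change was 2.58 for 14d against 1d, and 2.64 for 2y against 1d. The 28d level was 7.89-fold that of 1d on the TMM scale (2.98 ± 0.52 SE), and by library total the log2 fold change was 1.39 ± 0.49 SE, not past the threshold. For 2y against 14d it was 1.08 ± 0.48 SE on the TMM scale and 0.06 ± 0.48 SE by library total.

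Among the pigeon-named rows, the 5p arm of the same hairpin had more counts than the 3p arm in all 12 libraries. miR-1388-5p was at 40.6, 22.7 and 32.8 CPM at 1d, at 118, 136 and 209 CPM at 14d, at 504, 281 and 368 CPM at 28d, and at 401, 663 and 273 CPM at 2y. The 1d, 14d and 28d libraries did not overlap on the TMM scale, while those of 28d and 2y did. By library total those of 14d, 28d and 2y overlapped. It was 4.82-fold higher at 14d than at 1d (log2 fold change 2.27 ± 0.41 SE) and 13.9-fold higher at 2y than at 1d (3.80 ± 0.43 SE). By library total these differences were 3.81-fold (1.93 ± 0.56 SE) and 5.47-fold (2.45 ± 0.57 SE). Set against 14d, the 28d level was 2.49-fold higher on the TMM scale (1.32 ± 0.39 SE) and 0.34 ± 0.54 SE higher in log2 with the library total alone.

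A further row bears on the 3p arm at 1d. The table also lists a row with a conserved-name prefix, conserve-cli-miR-1388a-3p, which held 950 counts in 1d replicate 1 (134 CPM) and 0 in the other two 1d libraries. In the 9 later libraries it held at most 16 counts. In 1d replicate 1 the row miR-1388-3p itself held 145 counts (20.5 CPM) and miR-1388-5p 287, so the conserved-name 3p row held more than both together. Where the conserved-name rows were added to the members of the same number and arm, an alternative chosen after the data were seen, the difference of miR-1388-3p in log2 was 0.99 ± 0.89 SE for 14d against 1d and 2.06 ± 0.92 SE for 2y against 1d, neither past the threshold. The difference of miR-1388-5p was then 2.30 ± 0.40 SE for 14d against 1d. Whether the conserved-name and pigeon-named rows share a hairpin was not tested.

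miR-2188 showed the largest difference among the members in log2, on its 3p arm. miR-2188-3p was at 197, 259 and 138 CPM at 1d, at 18.7, 6.92 and 6.85 CPM at 14d, at 40.4, 31.6 and 29.1 CPM at 28d, and at 27.7, 23.7 and 57.4 CPM at 2y. The 14d libraries were the lowest and the 1d libraries the highest, each apart from all others on the TMM scale, and 28d and 2y overlapped. By library total the 1d libraries were again the highest, and those of the other 3 ages overlapped. The 14d values rest on 91, 63 and 63 counts. The 14d mean was 10.8 ± 6.80 CPM against 198 ± 60.3 CPM at 1d (SD, n = 3 each), 18.4-fold lower in the fit (log2 fold change -4.20 ± 0.54 SE), or -4.97 without 14d replicate 1. On the library total alone it was -4.54 ± 0.58 SE.

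After 14d the 3p arm of miR-2188 lay higher again, without returning to the hatchling level. It was at 33.7 ± 5.93 CPM at 28d against 10.8 ± 6.80 CPM at 14d, 3.14-fold higher (log2 fold change 1.65 ± 0.49 SE). On the library total alone this was 0.66 ± 0.51 SE, and the libraries of the 2 ages then overlapped. At 2y it was at 36.3 ± 18.4 CPM, 5.45-fold below 1d (-2.45 ± 0.49 SE, or -3.88 ± 0.56 SE with the library total alone).

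The 5p arm of miR-2188, the more abundant one, varied widely between birds of one age. miR-2188-5p was at 1283, 1966 and 847 CPM at 1d, at 2112, 450.8 and 418 CPM at 14d, at 426, 566 and 532 CPM at 28d, and at 568, 230.0 and 1211 CPM at 2y. On the TMM scale the 28d libraries lay below all 1d libraries, and every other pair of ages overlapped. By library total the 28d libraries also lay below all 14d libraries, and the 2y libraries below all 1d libraries. The log2 fold change for 14d against 1d was -0.46 ± 0.70 SE with all libraries and -1.77 without 14d replicate 1, the library in which both arms were highest for that age. It was -0.97 ± 0.71 SE for 28d against 14d on the TMM scale and -2.05 ± 0.68 SE by library total. For 2y against 1d it was -1.03 ± 0.71 SE and -2.48 ± 0.69 SE. By library total, 99 of all 344 tested rows were called lower for 28d against 14d and 18 higher. For 2y against 1d these were 111 and 12, so a lower level by library total was common to many rows.

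miR-456 lay lower at each step to 28d. The sum of its arms was at 468, 511 and 627 CPM at 1d, at 353, 327 and 402 CPM at 14d, at 61.9, 143.1 and 201 CPM at 28d, and at 193.9, 138 and 187 CPM at 2y. The 1d, 14d and 28d libraries did not overlap, and the 2y libraries lay within the 28d range. The sum was at 361 ± 38.2 CPM at 14d against 535 ± 82.0 CPM at 1d (SD, n = 3 each), 1.48-fold lower. The log2 fold change was -0.57 ± 0.36 SE, not past the threshold, and -0.87 ± 0.26 SE by library total, past it. The sum was at 135 ± 70.0 CPM at 28d against 361 ± 38.2 CPM at 14d, 2.67-fold lower (-1.42 ± 0.37 SE), and the difference was larger with the library total alone (-2.68 ± 0.27 SE). Less the median over all tested rows, these were -1.14 on the TMM scale and -1.37 by library total. At 2y the sum was 3.10-fold below 1d (-1.63 ± 0.37 SE, or -2.99 ± 0.28 SE with the library total alone). Between 2y and 28d the log2 fold change was 0.36 ± 0.36 SE.

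The counts of miR-456 sat on one arm or the other by library. In 1d replicate 2, 14d replicates 2 and 3, and 2y replicate 2 all counts were in the row miR-456-5p, with 3845, 2976, 3697 and 893 counts. In the other 8 libraries they were in the row miR-456-3p, with 318 to 4500 counts, beside 1 count of the 5p row in 1d replicate 3 and 0 elsewhere. For the 3 counts that a 0 allows, the unseen arm could hold up to 0.943% of the counts in 28d replicate 3 and less in the rest. Libraries of both kinds occur at 1d, 14d and 2y, while all 28d libraries were on the 3p row. Whether the arm depends on age was not tested. At 1d, the libraries with 3309 and 4500 counts in the 3p row had 468 and 627 CPM, and the one with 3845 counts in the 5p row had 511 CPM. At 14d the 3p library had 353 CPM and the 5p libraries 327 and 402 CPM. At 2y the 3p libraries had 194 and 187 CPM, and the 5p library was lower, at 138 CPM. Of 147 pigeon-named miRNAs with both arms in the table, 1 other, miR-204, had at least 95% of its counts on the 5p arm in some libraries and at least 95% on the 3p arm in another, among libraries with 100 or more counts. For miR-204 this was 10 libraries against 1, 2y replicate 1, in which miR-456 sat on the 3p row. For this reason no arm of miR-456 is followed on its own here, and whether the 2 row names hold the same sequence was not tested.

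**Figure D2:**
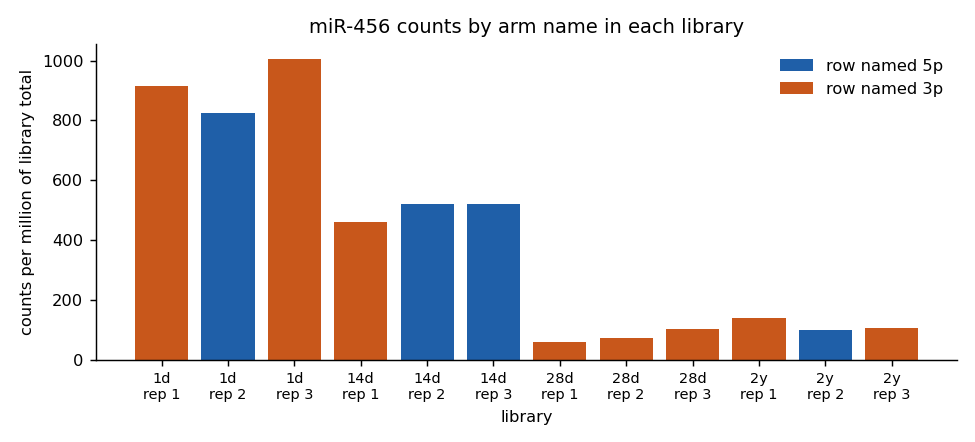
CPM of the library total of miR-456 in the 12 libraries (x axis, by age and replicate), with bars from 0 split by the arm in the row name. Each bar is of one colour, 5p in 4 libraries and 3p in 8, and the bars at 28d and 2y, at most 138, stand below those at 1d and 14d, at least 461.

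miR-1662 was carried almost wholly by its 5p arm and on the TMM scale was lowest at 14d and highest in adults. By library total it was highest at 1d, and the 14d and 28d libraries overlapped at the low end. miR-1662-5p was at 1904, 2590.1 and 1853 CPM at 1d, at 1231, 711 and 829 CPM at 14d, at 1277, 2580.1 and 1568 CPM at 28d, and at 3145, 3589.7 and 3191 CPM at 2y. On the TMM scale the 14d libraries lay below all others and the 2y libraries above all others, with 1d and 28d overlapping. By library total the 1d libraries, at 2973 to 4181 CPM, lay above all others, and the 2y libraries, at 1810.1 to 2618 CPM, lay between them and those of 14d (1075.5 to 1604.5 CPM) and 28d (799 to 1328 CPM). It was at 924 ± 272 CPM at 14d against 2116 ± 412 CPM at 1d (SD, n = 3 each), 2.29-fold lower (log2 fold change -1.20 ± 0.30 SE, or -1.60 without 14d replicate 1). With the library total alone it was -1.51 ± 0.28 SE.

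The later differences of miR-1662-5p depended on the scale. For 28d against 14d it was 1.96-fold higher on the TMM scale (log2 fold change 0.97 ± 0.30 SE), and with the library total alone it was -0.19 ± 0.27 SE, the opposite sign. For 2y against 1d it was 0.65 ± 0.30 SE on the TMM scale and -0.71 ± 0.28 SE with the library total alone. Less the median over all tested rows, the scales lay close. For 28d against 14d the values were then 1.25 on the TMM scale and 1.11 by library total. For 2y against 1d they were 0.60 and 0.55. Between 2y and 28d both scales gave a higher level at 2y, with 3308 ± 245 CPM at 2y against 1808 ± 684 CPM at 28d and log2 fold changes of 0.87 ± 0.30 SE and 0.99 ± 0.28 SE. In the edgeR fit neither 2y against 1d nor 2y against 28d was past the threshold on either scale. DESeq2 called 2y against 28d.

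The minor arm of miR-1662 did not follow the major one. miR-1662-3p was at 23.3, 14.1 and 12.4 CPM at 1d, at 26.7, 15.8 and 19.8 CPM at 14d, at 6.73, 12.9 and 9.49 CPM at 28d, and at 9.06, 12.02 and 11.3 CPM at 2y, from 15 to 182 counts a library. The 14d libraries were above all 28d and 2y libraries and overlapped those of 1d, on both scales. Its log2 fold change was 0.32 ± 0.38 SE for 14d against 1d, and -1.10 ± 0.39 SE for 28d against 14d. By library total the values were -0.04 ± 0.39 SE and -2.25 ± 0.41 SE. For 2y against 1d it was -0.62 ± 0.38 SE on the TMM scale and -2.02 ± 0.40 SE by library total.

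**Figure D3:**
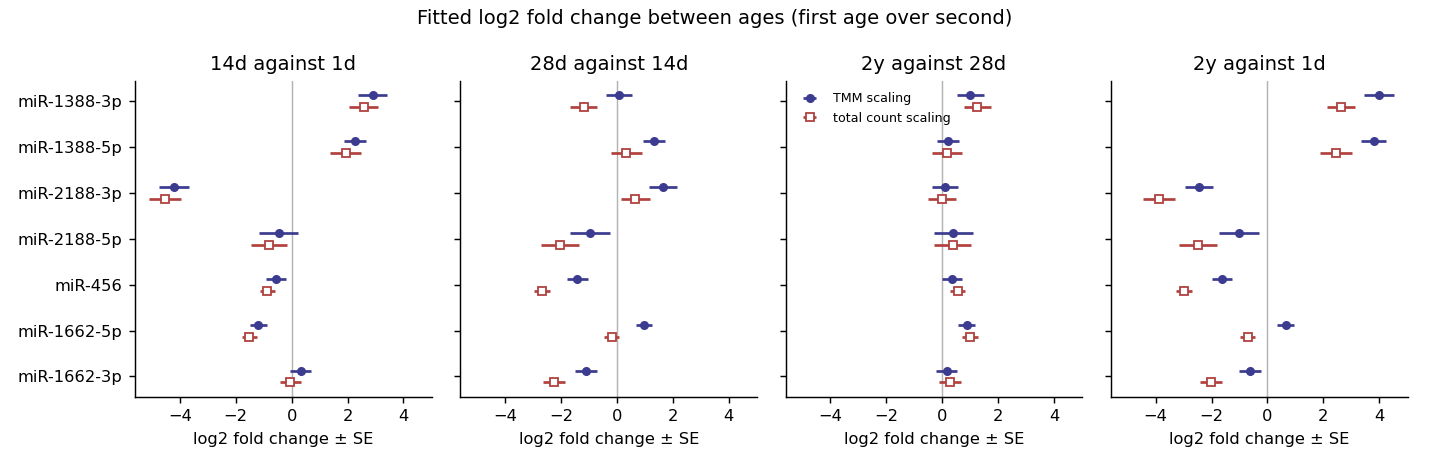
Fitted log2 fold changes (x axis, first-named age over second, bars ± SE) of the 7 member rows in 4 comparisons of ages, with TMM scaling as filled circles and the library total alone as open squares. In the comparison of 28d with 14d the circles and squares stand apart, and miR-1662-5p lies at 0.97 with TMM and at -0.19 with the library total.

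The split of a hairpin's counts between its arms needs no scaling of libraries, since both arms are counted in the same library. It rests on the arm in the row name, and the counts of miR-456 and miR-204 switched arm name between libraries. Whether naming bears on the shares below was not tested. The arm shares were chosen after the levels had been seen. For miR-2188 the 3p arm held 13.3, 11.6 and 14.0% of the counts at 1d, 0.876, 1.51 and 1.61% at 14d, 8.66, 5.29 and 5.19% at 28d, and 4.66, 9.36 and 4.53% at 2y. The widest exact 95% binomial interval (Clopper-Pearson) at 14d ran from 1.24 to 2.06% and the lowest bound at 1d was 11.1%, so the gap was far larger than the counting error. Without molecular identifiers on the reads, an interval covers the counting error and nothing else.

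For miR-1662 the 3p share was highest at 14d, the age at which that of miR-2188 was lowest. It was 1.21, 0.541 and 0.664% at 1d, 2.12, 2.17 and 2.33% at 14d, 0.525, 0.496 and 0.602% at 28d, and 0.287, 0.334 and 0.352% at 2y. All 14d libraries were above all libraries of the other ages, and all 2y libraries were below them. The 14d mean was 2.21 ± 0.110% against 0.805 ± 0.357% at 1d (SD, n = 3 each).

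For miR-1388 the arms were nearer to equal. The 3p arm held 33.6, 25.7 and 35.3% at 1d, 46.7, 46.4 and 37.6% at 14d, 10.3, 29.8 and 34.0% at 28d, and 41.9, 31.5 and 34.2% at 2y. Among the pigeon-named rows, the 14d libraries were above those of 1d and of 28d and overlapped those of 2y. The 950 counts of the conserved-name 3p row in 1d replicate 1 are not in the 33.6%, which rests on 432 counts of both arms. With them added, the 3p share of that library would lie above those of all 14d libraries. The value of 10.3% came from 28d replicate 1, where the 5p row held 4343 counts.

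**Figure D4:**
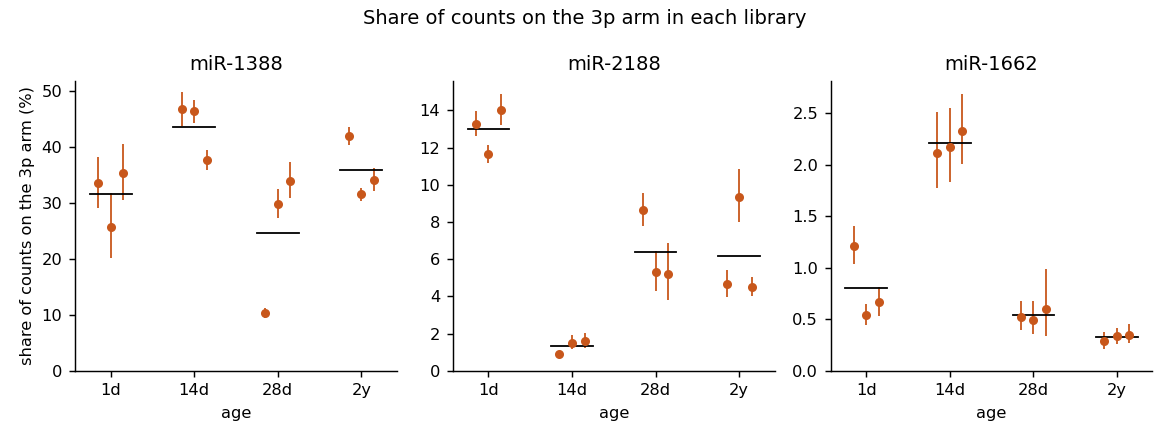
Share of a hairpin's counts on its 3p arm (y axis, %, from 0) by age for miR-1388, miR-2188 and miR-1662. Points are libraries with exact 95% intervals and lines the mean of 3. At 14d the share of miR-2188 is at most 1.61% and that of miR-1662 at least 2.12%.

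Shifts between arms were common in this table, and the members are read against that. Of the miRNAs with both arms, 84 had at least 100 counts on each arm over all libraries and did not switch arms as miR-456 and miR-204 did. The mean log2 ratio of 3p to 5p counts was compared between ages, with 0.5 added to each count. For 14d against 1d, 65.5% of the 84 ratios did not overlap between the 2 ages, with a median difference of -0.15 and quartiles of -1.25 and 1.08. The difference was -3.50 for miR-2188, 1.56 for miR-1662 and 0.75 for miR-1388. The members were chosen with these comparisons in view, so their places among the 84 are descriptions. Between 28d and 14d, where 54.8% did not overlap, it was 2.34 for miR-2188, -2.04 for miR-1662 and -1.40 for miR-1388. For 2y against 28d, where 20.2% did not overlap, it was -0.10 for miR-2188, -0.76 for miR-1662 and 0.93 for miR-1388. For 2y against 1d, where 61.9% did not overlap, it was -1.26 for miR-2188, -1.23 for miR-1662 and 0.28 for miR-1388. Among the pigeon-named rows, without the conserved-name row of miR-1388, the ratios of all 3 did not overlap between 14d and 1d, nor between 28d and 14d. For 2y against 28d that of miR-1662 did not overlap and the other two did, and for 2y against 1d those of miR-2188 and miR-1662 did not overlap and that of miR-1388 did.

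**Figure D5:**
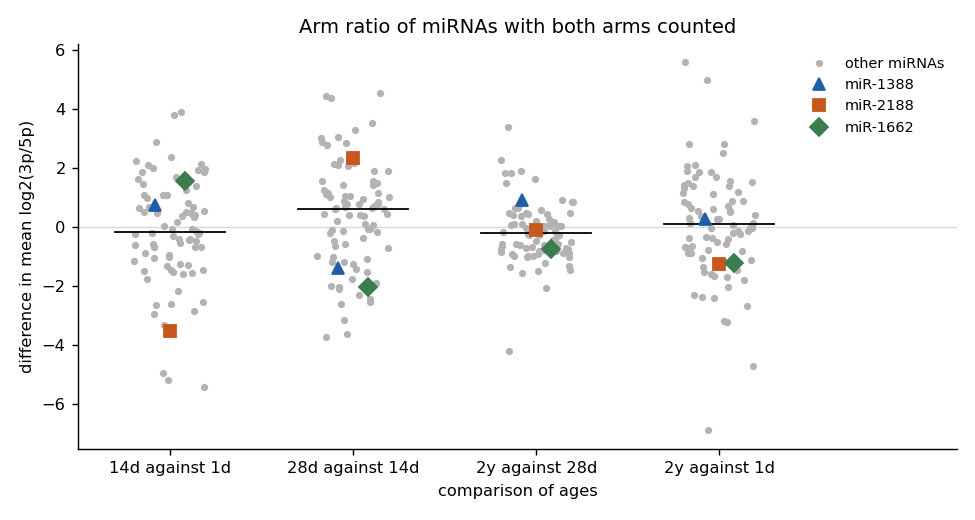
Difference between ages in the mean log2 ratio of 3p to 5p counts (y axis) for 84 miRNAs with both arms counted, in 4 comparisons of ages (x axis). Grey points are other miRNAs, black lines the median, and coloured symbols the 3 members. miR-2188 lies at -3.50 for 14d against 1d and at 2.34 for 28d against 14d.

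The miRNAs most like each member were found by Pearson's r of log2(CPM + 1) over the 12 libraries among the 343 other tested rows. These values are descriptions, from points that share library, depth and scale. For miR-1388-3p they were miR-146a-3p, miR-22-3p and its own other arm miR-1388-5p, each with r = 0.889. miR-22-3p was at 257100 ± 88500 CPM at 2y against 26920 ± 5120 CPM at 1d. miR-146a-3p was scarce, at 10.7 ± 3.47 CPM at 2y against 1.42 ± 1.22 CPM at 1d, where 3 counts stand for 0.40 to 0.42 CPM. For miR-2188-3p they were miR-100-3p and miR-30d-3p, each with r = 0.941, and miR-16b-5p (r = 0.924). Like miR-2188-3p, these had their means highest at 1d and lowest at 14d, with miR-30d-3p at 64.7 ± 28.2 CPM at 14d against 990 ± 193 CPM at 1d.

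For miR-456 the most alike were miR-92-5p (r = 0.970), miR-222a-5p and miR-222a-3p (r = 0.933 each). miR-92-5p was at 50.8 ± 16.7, 32.5 ± 10.8, 3.56 ± 2.78 and 6.84 ± 1.39 CPM at 1d, 14d, 28d and 2y. For miR-1662-5p they were miR-218-5p (r = 0.887), miR-101-3p (r = 0.783) and miR-1559-5p (r = 0.782), the last another number known from birds. With the library total alone miR-101-3p had r = 0.461 to miR-1662-5p and ranked 78 of 343, and miR-1559-5p ranked 9. On that scale miR-16b-5p ranked 12 for miR-2188-3p and miR-222a-5p ranked 6 for miR-456. Between the arms of one hairpin r was 0.889 for miR-1388, 0.571 for miR-2188 and -0.345 for miR-1662 on the TMM scale, and 0.801, 0.716 and 0.385 with the library total alone.

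A list of 25 other numbers with no human miRNA, drawn up with earlier results of these data known, had 31 rows in the table, of which 20 were tested. For 14d against 1d, 4 were called higher and 1 lower, beside 54 and 48 of all 344 rows, with a median log2 fold change of 0.56 beside 0.46 over all tested rows. Between 28d and 14d it was 1 higher and 5 lower, beside 54 and 43, with a median of 0.12 beside -0.28. For 2y against 28d none was called, in the list or among all rows, with a median of -0.44 beside -0.18, and for 2y against 1d it was 0 higher and 1 lower, beside 49 and 46, with a median of 0.01 beside 0.05. By library total 2 were higher and 2 lower for 14d against 1d, beside 30 and 49 of all rows. It was 0 and 7 for 28d against 14d beside 18 and 99, 0 and 0 for 2y against 28d beside 0 and 0, and 0 and 9 for 2y against 1d beside 12 and 111. The 3 of highest mean level were miR-2954-3p, encoded on the Z chromosome in chicken and zebra finch, miR-2970-3p and miR-460a-5p. miR-2970-3p was at 3488 ± 909, 3381 ± 506, 4752 ± 3140 and 2976 ± 426 CPM at 1d, 14d, 28d and 2y, and miR-460a-5p at 1629 ± 560, 5961 ± 890, 2497 ± 2480 and 2601 ± 910 CPM. miR-2954-3p was at 2520 ± 204, 13530 ± 4780, 5376 ± 3690 and 2572 ± 420 CPM. The means of miR-2954-3p and miR-460a-5p were highest at 14d, and the 28d libraries of miR-2970-3p spanned 1710 to 7983 CPM. As the sex of each bird is not given, age and sex cannot be told apart in the values of miR-2954-3p.

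The shares held by some lists of marker miRNAs also lay apart between some ages, while others overlapped. Their part in the values above was not tested. Shares of all counts are given in the order 1d, 14d, 28d and 2y. A share sums the rows of a list, so abundant rows weigh most and the rows need not move together. Over all libraries miR-148a-3p of the hepatocyte list held 11521463 counts. In the mesenchymal list miR-143-3p held 6322293 counts and miR-214-3p 11299. In the proliferation list miR-92-3p held 1548902 counts and miR-17-5p 69671. miR-92-5p, the row most like miR-456, is also in that list. Of the hepatocyte list, 2 of 4 numbers were analysed, and they held 16.2 to 20.5, 5.72 to 6.45, 17.7 to 25.7 and 15.8 to 18.1%. The other 2, miR-122 and miR-192, and the 3 of the erythroid list had no pigeon-named row, so the shares leave them out. Rows under other prefixes were not searched for the lists. The leukocyte list (3 of 5 numbers) held 2.65 to 4.94, 1.53 to 2.24, 2.20 to 8.99 and 2.65 to 3.18%, and the endothelial one (1 of 1) 2.98 to 5.09, 2.12 to 2.69, 1.92 to 4.09 and 2.11 to 2.27%. The mesenchymal list (4 of 4) held 7.78 to 9.47, 3.85 to 5.52, 7.58 to 13.2 and 12.1 to 19.1%, and like the hepatocyte list was lowest at 14d, as miR-1662-5p was on the TMM scale but not by library total, the scale of these shares. The proliferation list (5 of 5) held 3.76 to 4.43, 3.18 to 10.1, 0.560 to 0.849 and 0.947 to 0.991%, and like miR-456 was lower in all 28d and 2y libraries than in all 1d and 14d ones.

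The remaining lists were small. The biliary epithelial list (2 of 3 numbers) held 0.0611 to 0.0641, 0.0844 to 0.110, 0.0324 to 0.0964 and 0.0391 to 0.0409%. The pancreas list (3 of 3) held 0.00742 to 0.0157, 0.0469 to 0.0746, 0.00888 to 0.0380 and 0.0158 to 0.0321%. The muscle list (3 of 4) held 0.101 to 0.373, 0.271 to 0.540, 0.0560 to 0.188 and 0.0341 to 0.0445%, and the neural list (2 of 2) 0.0129 to 0.0454, 0.0648 to 0.0900, 0.00148 to 0.0339 and 0.00197 to 0.00381%. The pancreas and neural lists were higher in all 14d libraries than in all others, while at 14d the biliary epithelial and muscle lists overlapped another age. None of the marker rows was at 0 in all libraries.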

How the data were processed

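Per the file headers, the deposited values are raw counts of reads, with a row for each mature miRNA and 1 column per library that matches 1 title. Per the submitters' processing notes Bowtie was used. For its version, the genome build, the counting program and reads shared by several miRNAs the entry is: not given in the sources used here. Each library came from 1 pigeon, per the labels' protocols. Totals were 3100273 to 9393075 counts per library, and no row lacked a miRNA name.

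The 2 arms of miR-456 were summed to 1 row. Rows were filtered by filterByExpr, scaled by TMM and fitted with edgeR 4.0.16 (R 4.3.3) as a quasi-likelihood model with 1 mean per age over all 12 libraries. The Benjamini-Hochberg adjusted p under 0.05 was the threshold over all 344 rows. SE is the log2 fold change divided by the root of its F statistic. Libraries of one age differed by at least 397 times the chi-square per degree of freedom that sampling alone gives, so none was taken for a repeat. The scripts were tested on simulated counts. DESeq2 1.42.0 was an alternative.

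The members, lists and comparisons were chosen with earlier results of these data known. Named are all rows of the 4 numbers, the 3 miRNAs most like each member and the 3 most abundant rows of the list of other numbers. miR-204, the arm ratios and the single rows named from marker lists were chosen after their values were seen.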

Additional observations from a re-analysis of the deposited data

Results flagged for a closer look

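Rows outside the pigeon-named ones held counts of the same numbers, above the 3 counts that a 0 allows. conserve-cli-miR-1388a-3p held 950 counts in 1d replicate 1, beside 145 counts of miR-1388-3p in that library, and 0 in 1d replicates 2 and 3. conserve-cli-miR-1388a-5p held 26 counts in 14d replicate 1, where miR-1388-5p held 576. conserve-cli-miR-456-3p held 18 counts in 14d replicate 2, a library whose pigeon-named counts of miR-456, 2976, were all on the 5p row.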

How the results depend on the processing

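Most dependence came from scaling. With the total count alone the log2 fold change of miR-1662-5p for 28d against 14d turned to -0.19. In the same comparison it was -1.19 for miR-1388-3p, 0.66 for miR-2188-3p and -2.68 for miR-456, and for 2y against 1d it was 2.64, -3.88 and -2.99 for the same 3 and -0.71 for miR-1662-5p. For 14d against 1d miR-456 was at -0.87 with the total count, -0.81 with relative log expression factors and with DESeq2, -0.99 with no filter, -0.82 with pigeon-named rows only and -0.88 with the 6 libraries compared. miR-1662-5p was at -1.68 with no filter and -1.58 with the 6 libraries for 14d against 1d, and for 2y against 1d at 0.44 with DESeq2 and relative log expression factors and at 0.32 with no filter. miR-456 for 2y against 1d was at -1.94 with no filter. With the conserved-name rows added, miR-1388-3p was at 0.99 for 14d against 1d and 2.06 for 2y against 1d, neither past the threshold. The cause was not tested for any of these.

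Leaving out 1 library at a time gave -1.60 to -1.08 for miR-1662-5p, -4.97 to -4.00 for miR-2188-3p and -0.87 to -0.48 for miR-456 for 14d against 1d, and 0.79 to 1.25 for miR-1662-5p for 2y against 28d. Of the 7 member rows 0 to 4 were then called for 28d against 14d: 0 without 14d replicate 2, 1 without 14d replicate 3 or 28d replicate 2, and 3 or 4 otherwise, 3 because miR-1388-5p was lost without 14d replicate 1, 28d replicate 1 or 28d replicate 3. For 14d against 1d 3 to 5 were called, miR-1662-5p being lost without 1d replicate 2 or 14d replicate 2 and miR-456 gained without 28d replicate 1, and for 2y against 1d 4 each time. The share of miR-456 on the 5p row, a mean of 33.3, 66.7, 0 and 33.3% at 1d, 14d, 28d and 2y, ranged over 0.0111 to 50.01, 50 to 100, 0 and 0 to 50%.

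Same-numbered libraries had correlations of their deviations from -0.132 to 0.297, and 5 of 12 libraries were closest to their own number. Whether they share more than a number cannot be told from these values. With the replicate block 4, 2, 0 and 4 of the 7 were called (14d over 1d, 28d over 14d, 2y over 28d, 2y over 1d), and 68, 76, 0 and 81 of all rows. All rows called numbered 102, 97, 0 and 95 in the reported fit, 50 to 118, 62 to 86, 0 to 2 and 71 to 110 without 1 library, 50, 58, 0 and 66 with no filter, and 121, 128, 17 and 123 with DESeq2. The rows tested numbered 344 in the reported fit and with DESeq2, 384 to 409 without 1 library and 936 with no filter. Depth limits miR-1662-3p and miR-2188-3p most, with as few as 15 and 46 counts in a library.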
